A study of Mus musculus with 7 samples.

Results

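The transcripts described here are those of 4 genes, Tnmd, Lce1g, Crct1 and Krt75, whose known sites of expression are tendon, the cornified layers of the epidermis and the hair follicle. They were picked by name, because their levels in these same libraries were higher in Lhx6 mutants than in controls, so the genotype difference of each is a description here and carries no test. They are 4 of the 47729 genes in the count table, and all 4 passed the filter on low counts together with 19684 genes in all (at least 10 counts in at least 3 libraries). Lce1g, Crct1 and Krt75 passed it through the 3 mutant libraries alone, so they could pass only because they were high in that group. The name epidermal and tendon genes holds for the origin of the 4 genes, while most defining markers of epidermis and tendon were at or near 0, or did not pass the test, in the same libraries, and 1 of them, Mkx, was lower in mutants.

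The tissue was the forebrain of mice at postnatal day 15 from a C57BL/6 by 129Sv F1 background. Control animals were Lhx6+/- (4 libraries) and mutant animals Lhx6-/- (3 libraries), so both genotypes carry at least 1 Lhx6tm2Vpa null allele in every cell of the body and there was no wild-type group. Lhx6 is a LIM homeodomain transcription factor of interneurons born in the medial ganglionic eminence. Each library was made from a pool of 2 animals, and n counts pools. In whole tissue, more cells of a type and more RNA per cell cannot be told apart. The libraries are called below by the numbers in their column names (controls 2, 3, 10 and 11, mutants 5, 12 and 13), since those names do not say which labelled replicate each one is.

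Library totals ran from 32556304 to 38069151 counts in controls and from 34943398 to 37384849 in mutants. Lhx6 itself had between 476 and 615 normalized counts in the controls and between 70.1 and 76.6 in the mutants, where a normalized count is a count divided by the library's size relative to the mean of all 7. The neuronal genes Slc17a7 and Snap25 were abundant in every library, and 8 homeobox genes of the hindbrain and spinal cord summed to at most 1.78 CPM, the count scaled to a common library depth. Library 12 did not match the recorded sexes. No mutant pool was recorded as 2 males, yet that library had 11.4 normalized counts of Xist, the X-inactivation transcript of female cells, against 9572 and 11210 in mutants 5 and 13. Its Ddx3y, a Y-linked gene, reached 1548 normalized counts against 768 and 834. Results are therefore also given without library 12. Libraries 2, 3 and 5 and libraries 10 to 13 form separate number ranges with both genotypes in each, and values within each range are given where they matter. Among controls the range coincides with sex. Xist had 2.2 and 6.0 normalized counts in controls 2 and 3, and 21620 and 21310 in controls 10 and 11. Comparisons by number range therefore cannot separate range from sex in the controls.

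The outermost epidermis is a layer of dead keratinocytes wrapped in a cornified envelope, a shell of cross-linked proteins. Many of these proteins, among them the late cornified envelope (Lce) and small proline-rich (Sprr) families, loricrin and filaggrin, come from a cluster on mouse chromosome 3 called the epidermal differentiation complex. Lce1g and Crct1 lie in it. Keratins are the intermediate filament proteins of epithelia, each filament pairing a type I with a type II keratin, and Krt75 is a type II keratin of the hair follicle companion layer. Tnmd, tenomodulin, is a membrane glycoprotein with a BRICHOS domain that marks tenocytes and acts downstream of the tendon transcription factors Scx and Mkx. None of these 4 genes is a usual marker of forebrain cells.

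RefSeq promoter windows (GRCm38.p6, 250 bases before to 50 after the annotated start) were available for 3 of the 4 genes. These 3 genes lie on 3 chromosomes. Their shared direction between genotypes was fixed by the choice of the genes, so the windows are shown as a description. Capitals mark matches to the E-box letters CANNTG and to ATAAAAG, and all sequences read 5′ to 3′ along the gene's strand. The window of Tnmd is chrX:133850758-133851057 on the plus strand, that of Lce1g chr3:92752289-92752588 on the minus strand and that of Krt75 chr15:101573855-101574154 on the minus strand.
Tnmd: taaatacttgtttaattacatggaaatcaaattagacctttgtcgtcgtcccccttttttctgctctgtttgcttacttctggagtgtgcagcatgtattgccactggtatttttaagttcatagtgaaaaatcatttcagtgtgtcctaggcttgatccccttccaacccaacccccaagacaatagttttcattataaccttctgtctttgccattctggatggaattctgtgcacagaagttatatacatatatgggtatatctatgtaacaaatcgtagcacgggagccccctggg
Lce1g: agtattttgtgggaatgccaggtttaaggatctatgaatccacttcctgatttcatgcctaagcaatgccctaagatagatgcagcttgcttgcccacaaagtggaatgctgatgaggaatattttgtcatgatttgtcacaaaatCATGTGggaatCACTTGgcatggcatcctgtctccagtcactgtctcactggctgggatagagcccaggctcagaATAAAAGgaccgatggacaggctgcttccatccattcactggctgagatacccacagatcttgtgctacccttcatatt
Krt75: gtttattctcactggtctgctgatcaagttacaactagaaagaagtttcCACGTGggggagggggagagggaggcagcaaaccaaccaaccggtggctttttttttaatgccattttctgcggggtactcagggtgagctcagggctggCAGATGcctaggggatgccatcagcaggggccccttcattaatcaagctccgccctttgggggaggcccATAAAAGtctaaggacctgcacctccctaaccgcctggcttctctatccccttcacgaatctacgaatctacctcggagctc

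ATAAAAG stood 29 bases before the start of Lce1g and 32 bases before that of Krt75, and 5.42% of 32851 mouse promoter windows of the same length hold these letters on either strand. They were chosen after the sequences had been seen. CANNTG matched in Lce1g at 104 and 93 bases before the start and in Krt75 at 201 and 101 bases, against 72.3% of all windows with at least 1 match. The window of Tnmd had no match to either motif. Other motifs were searched on both strands and matched in none of the 3 windows. They were the TATA box TATAAA, held by 13.6% of all windows, which overlaps ATAAAAG where both occur, the AP-1 site TGANTCA, held by 7.81%, the cAMP response element TGACGTCA, held by 1.79%, and the CCAAT box, held by 37.4%. The 3 windows share no single motif of those searched, and their GC content was 40.0% for Tnmd, 45.7% for Lce1g and 53.7% for Krt75.

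Tnmd had the highest level of the 4 genes. It lies on the X chromosome (ENSMUSG00000031250, GRCm38 chrX:133850980-133865577, plus strand, 7 exons) and no other annotated gene overlaps it or shares a 36-base word with it, 36 bases being the read length. The control libraries had 7.68, 26.1, 19.2 and 21.3 normalized counts (libraries 2, 3, 10 and 11), and the mutants had 626, 502 and 873 (libraries 5, 12 and 13). Tnmd was therefore detected in every library, and the lowest mutant was 19.2 times the highest control. The means were 18.6 ± 7.82 (SD, n = 4) and 667 ± 189 (SD, n = 3), a ratio of 35.9. Without library 12 the mutant mean was 750. As a level per length, the mutant mean was 13.8 CPM per kilobase, above 79.9% of the genes tested, and the control mean was 0.385 on the same scale. Controls were low both in the libraries with almost no Xist (2 and 3) and in those with abundant Xist (10 and 11). Within libraries 2, 3 and 5 the control mean and the mutant stood at 16.9 and 626, and within libraries 10 to 13 the means were 20.3 and 688.

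Lce1g encodes a late cornified envelope protein (ENSMUSG00000027919, chr3:92750148-92752338, minus strand, 2 exons). It had 0 counts in each of the 4 control libraries. The mutant libraries 5, 12 and 13 had 45.0, 42.4 and 99.4 normalized counts, a mean of 62.3 ± 32.2 (SD, n = 3), so Lce1g was found in all the mutants and in no control. Against a floor of 3 counts per control library the mutant mean was at least 18.9-fold higher. Of the 36-base words in the Lce1g exons, 30.2% also occur in other genes, mainly Lce1j, Lce1e, Lce1c and Lce1i, so the assignment of reads within this family is uncertain. Lce1j, Lce1e and Lce1c were listed at 0 in every library, while Lce1i had 0 counts in every control and 2.32, 2.29 and 3.16 in mutants 5, 12 and 13. The mutant mean without library 12 was 72.2 normalized counts. Within libraries 10 to 13 the mutant mean was 70.9, and library 5 alone gave the 45.0 above, both against 0. Per length the mutant mean was 1.89 CPM per kilobase with all 3 mutants, above 39.9% of the genes tested.

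Crct1, cysteine-rich C-terminal 1, is a small gene of the same complex (ENSMUSG00000027913, chr3:93014205-93015687, minus strand), and shares no 36-base word with another gene. Controls 2 and 3 had 0 counts of Crct1 and controls 10 and 11 had 1 count each. The mutant libraries 5, 12 and 13 had 25.9, 35.2 and 69.1 normalized counts, a mean of 43.4 ± 22.8 (SD, n = 3). The groups were far apart, although the control level rests on 2 counts. The ratio of the summed counts, 134 in mutants and 2 in controls, was 86.0 after correction for library size, with an exact 95% interval of 23.3 to 717 that covers counting error only. Leaving out library 12 gave a mutant mean of 47.5. Within libraries 2, 3 and 5 the values were 0 in controls and 25.9 in the mutant, and within libraries 10 to 13 the means were 0.988 and 52.2. On the per-length scale the mutant mean was 1.54 CPM per kilobase, above 36.7% of the genes tested.

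Krt75 (ENSMUSG00000022986, chr15:101563345-101573904, minus strand, 9 exons) had the lowest level per length of the 4, at 0.345 CPM per kilobase in mutants, above 15.1% of the genes tested. Its control libraries 2, 3, 10 and 11 had 4.39, 2.01, 0 and 0 normalized counts. The mutants 5, 12 and 13 had 58.4, 30.0 and 32.2. Again the groups did not overlap, the lowest mutant being 6.84 times the highest control. The means were 1.60 ± 2.09 (SD, n = 4) and 40.2 ± 15.8 (SD, n = 3), and the mutant mean was 45.3 without library 12. The controls with counts were libraries 2 and 3, and within the numbers 2, 3 and 5 the control mean and the single mutant stood at 3.20 and 58.4, against 0 and 31.1 within libraries 10 to 13. A microRNA gene on the opposite strand, Gm44460, lies within Krt75 and had at most 1.85 counts in any library. Words shared with any other gene made up 3.25% of Krt75.

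**Figure D1:**
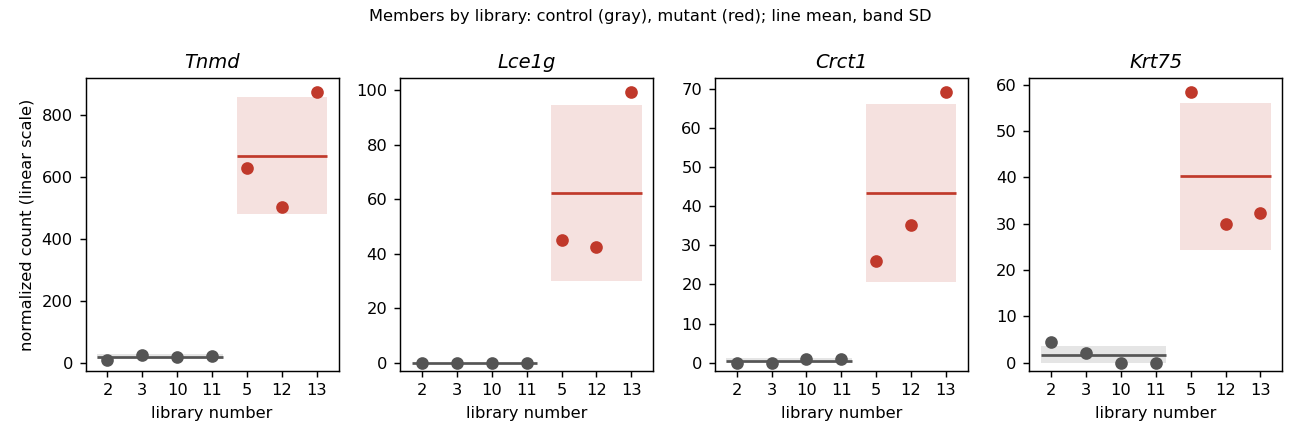
Normalized counts (linear scale, one y axis per gene) of the 4 genes in each library, controls in gray and mutants in red, with the group mean as a line and 1 SD as a band. Every mutant point lies above every control point, from a lowest mutant of 502 in Tnmd to one of 25.9 in Crct1, and library 13 is the highest mutant in the first 3 panels while library 5 is the highest for Krt75.

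In all 4 genes each mutant library was above each control library, which is what the choice of these genes asked for, and 10.7% of all tested genes have that order. Across the whole table, edgeR's quasi-likelihood test at a Benjamini-Hochberg adjusted p of 0.05 called 4.85% of genes (954), 585 of them higher (2.97%) and 369 lower (1.87%) in mutants. Without library 12 it called 252 higher and 135 lower, while DESeq2 on all 7 libraries called 1002 and 729, and edgeR with the library number range as a covariate called 1213 and 992. The members did not keep the same order among the mutants. Library 13 stood at 1.31, 1.60 and 1.59 times the mutant mean for Tnmd, Lce1g and Crct1, and at 0.801 times for Krt75. Library 5 was at 1.45 times the mutant mean for Krt75 and at 0.596 times for Crct1. The ratio of Crct1 to Lce1g was 0.57, 0.83 and 0.70 in mutants 5, 12 and 13, while that of Crct1 to Krt75 ran from 0.443 to 2.15.

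The likeness of other genes to each member was measured over the 7 libraries as the root mean square difference of log2 CPM after each gene was centred on its own mean. As a description, with a median of 1.93 to 2.58 for all tested genes, small values are alike. The measure includes the genotype difference by which the members were chosen, so their nearness to each other is partly built in. Lce1g was nearest to Crct1 (0.47), then to Tnmd (0.48), Cd300lb, Fam150b and Gm26920. Tnmd was nearest to Lce1g, then Cd300lb, Crct1, Fam150b and Krt80. Crct1 was nearest to Gm26920 (0.37), followed by Cd300lb, Uts2b, Lce1g and Nrap. Cd300lb encodes a receptor of myeloid cells, Fam150b a ligand of the ALK receptor kinase, Uts2b a urotensin-like peptide and Nrap a muscle anchoring protein.

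Krt75 had other neighbours on this measure. They were Nuggc (0.50), Adcyap1 (0.55), Ppm1j (0.58), Gal (0.65) and Creb3l1 (0.65), and none of the other 3 members was among its 40 nearest genes. Adcyap1 and Gal encode the neuropeptides PACAP and galanin. Adcyap1 had a mean of 578 ± 80.7 (SD, n = 4) normalized counts in controls and 6218 ± 664 (SD, n = 3) in mutants. Gal had 7.17 ± 1.47 (SD, n = 4) and 59.1 ± 3.62 (SD, n = 3). These 5 genes were chosen for their likeness to Krt75, and the difference between genotypes is the main part of that likeness.

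The rest of the epidermal differentiation complex was close to 0. Without Lce1g and Crct1 the list held 59 gene entries, filaggrin being listed under several IDs. Of these, 33 had 0 counts in every library and 45 had no more than 3 deposited counts in any library. Only Tchh and Lor reached the filter for testing, and neither was called by edgeR, DESeq2 or limma-voom, or at an unadjusted edgeR p of 0.05. Tchh, trichohyalin of the hair follicle, had a log2 difference of 0.34 ± 0.23 (SE, edgeR adjusted p = 0.52). Lor, loricrin, the main cornified envelope protein, had -0.08 ± 0.31 (SE, edgeR adjusted p = 0.94), with 154 to 386 normalized counts in controls and 202 to 273 in mutants. Between Lce1g and Crct1 lie 262 kilobases with 13 coding genes, of which 11 had at most 3 deposited counts in any library and 0 reached 10. Those 13 genes together held 6 rounded counts in the controls and 15 in the mutants.

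Some of the low counts in this complex were nonetheless higher in mutants. The 17 Sprr genes, which encode precursors of the cornified envelope, summed to 3, 3, 6 and 7 counts in controls 2, 3, 10 and 11 and to 38, 25 and 30 in mutants 5, 12 and 13. The 20 Lce genes other than Lce1g summed to 3, 0, 5 and 1 counts against 11, 8 and 10. Sprr1a held the most, with 0, 3, 1 and 0 counts in controls and 17, 8 and 17 in mutants. It fell below the filter, and when all genes were tested without a filter its log2 difference was 3.60 (edgeR adjusted p = 0.049). Lce1f, which shares words with Lce1g, had 2 counts in 1 control and 2.35 to 6.00 in the mutants. Lce1i, which also shares words with Lce1g, had 0 counts in every control and 2.29 to 3.16 in the mutants. The assignment of reads to Lce1f and Lce1i is therefore uncertain. For both families every mutant sum exceeded every control sum, at levels of at most 38 counts among more than 32556304. That order held for 10.7% of all tested genes. The Lce gap rested on Lce1f and Lce1i. Of the other Lce genes, Lce3c had 3, 0, 3 and 0 counts in controls and 3, 4 and 1 in mutants. Lce1m had 1 count in 1 control, and the rest had 0.

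**Figure D2:**
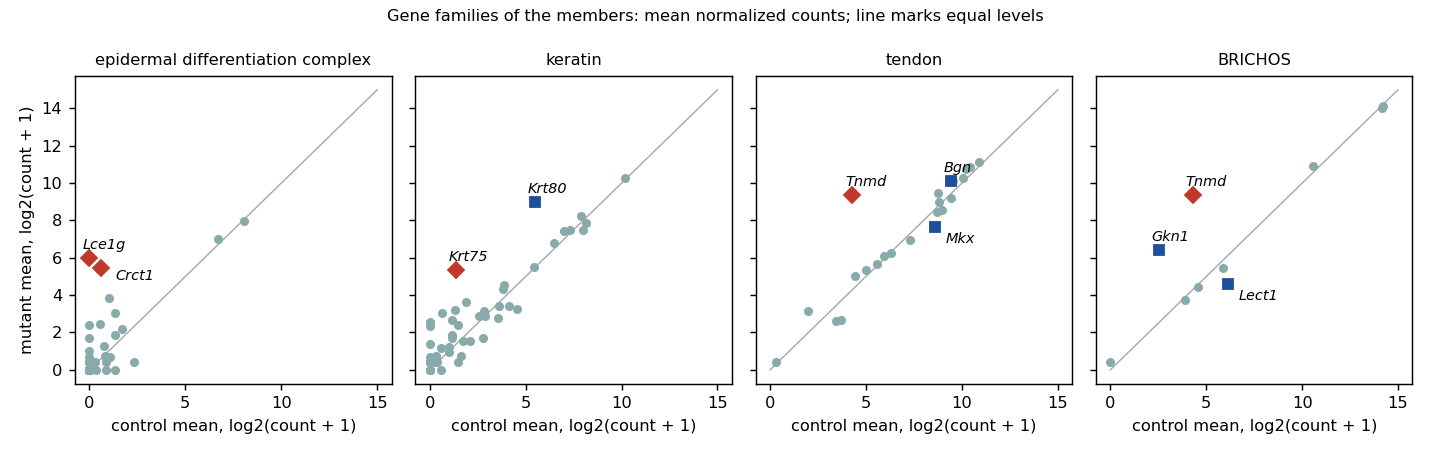
Mean normalized count in controls (x) and mutants (y), both as log2(count + 1), for each gene of 4 lists, with members as red diamonds, other genes past the edgeR test as blue squares, other genes as gray-green points and a line for equal levels. Lce1g and Crct1 stand apart from a cluster of genes near 0, Krt75 and Krt80 lie above the line among the keratins, and Mkx and Lect1 are the squares below it.

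Among the other keratins, Krt80 passed the test. Apart from Krt75, 50 keratin genes were in the table, 14 reached the filter, 1 was called higher and 0 lower, also by DESeq2 and limma-voom, where 2.97% of all tested genes were called higher. At an unadjusted edgeR p of 0.05 there were 2 higher and 2 lower. The median log2 difference of the 14 was 0.15, against -0.01 over all genes tested, with 9 positive and 5 negative. Krt80, a type II keratin of differentiating epithelia, had 23.0, 38.2, 58.5 and 53.9 normalized counts in controls and 483, 588 and 468 in mutants. It rose by 3.55 ± 0.27 on the log2 scale (SE, edgeR adjusted p = 0.00050), and by 3.45 without library 12. Within libraries 2, 3 and 5 the log2 ratio was 3.98 and within 10 to 13 it was 3.23. Krt80 lies on chromosome 15 at 101349571-101370125, in the same keratin cluster as Krt75.

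Keratins of the basal and spinous epidermis gave other values. Krt5 had 0 to 3 counts in controls and 0 to 8.45 in mutants, and Krt14 had 0 to 7.89 and 1.23 to 2.63, both too few to be tested. Krt1 had a log2 difference of 0.44 (edgeR adjusted p = 0.39) and Krt10 one of -0.26 (edgeR adjusted p = 0.56). Krt17, a keratin of hair follicle and stressed epidermis, had 1, 1.73, 4 and 4 counts in controls and 14.5, 14 and 5.77 in mutants, below the filter, and 11.9% of its words are shared with other keratins. The summed level of the keratin list without Krt75 was 61.4 to 81.0 CPM in controls and 86.3 to 92.2 CPM in mutants, with Krt80 inside that sum. Without Krt80, a choice made after its values were seen, the sums overlapped, at 2134 to 2849 normalized counts in controls and 2609 to 2701 in mutants.

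Other keratinocyte genes were mixed. The list held 31 entries for 25 genes, filaggrin again having several IDs, and 13 were tested. Of these 2 were called higher and 0 lower by edgeR, also by DESeq2 and limma-voom, against 2.97% and 1.87% of all tested genes by edgeR. The median log2 difference was -0.03. At an unadjusted edgeR p of 0.05 there were 3 higher and 1 lower. Dmkn, dermokine, a secreted protein of upper epidermal layers, had a mean of 52.0 ± 14.9 (SD, n = 4) normalized counts in controls and 154 ± 12.4 (SD, n = 3) in mutants, a rise of 1.56 ± 0.23 (log2, SE, edgeR adjusted p = 0.0077). Tgm1, the transglutaminase that cross-links the cornified envelope, had 5.02 to 8.13 normalized counts in controls and 21.1, 25.9 and 41.7 in mutants, and it passed the filter through the mutants alone. Tested without a filter it rose by 2.04 ± 0.40 (log2, SE, edgeR adjusted p = 0.017). With the filter but without library 12, fewer than 3 libraries reached 10 counts of Tgm1 and it was not tested. The summed keratinocyte list overlapped between groups, at 33.5 to 44.6 CPM in controls and 39.2 to 46.3 CPM in mutants.

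Among tendon genes other than Tnmd, biglycan was higher and Mohawk lower. Of 22 genes, 19 were tested. Of those 19, 1 was called higher and 1 lower, against 2.97% and 1.87% of all tested genes. Log2 differences were positive for 12 and negative for 7, with a median of 0.20. At an unadjusted edgeR p of 0.05 there were 6 higher and 1 lower, and DESeq2 called 3 higher and edgeR with the number range as a covariate 4. Bgn, the proteoglycan biglycan, rose by 0.66 ± 0.10 (log2, SE, edgeR adjusted p = 0.0075), from a mean of 692 ± 35.1 (SD, n = 4) normalized counts to 1091 ± 115 (SD, n = 3). Mkx, which encodes the transcription factor Mohawk, fell by 0.94 ± 0.17 on the log2 scale (SE, edgeR adjusted p = 0.016), from 381 ± 77.9 (SD, n = 4) to 198 ± 9.92 (SD, n = 3). The Mkx call was lost without any 1 of the mutant libraries 5, 12 or 13, the adjusted p over all alternatives reaching at most 0.095. Scx, the defining tendon transcription factor, had 21.1 to 46.0 normalized counts in controls and 36.2 to 46.4 in mutants (log2 difference 0.34, edgeR adjusted p = 0.63). Thbs4, a matrix protein of tendon and muscle, had a log2 difference of 0.70 (edgeR adjusted p = 0.068), and Fmod and Comp had -0.21 and -1.14 (edgeR adjusted p = 0.72 and 0.35). Kera, keratocan, had at most 1 count in any library. The summed list without Tnmd was 267 to 318 CPM in controls and 315 to 397 CPM in mutants.

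Tnmd shares its BRICHOS domain with a small family of genes. Of the 9 other genes, 8 were tested, with a median log2 difference of -0.14. Of those 8, 1 was called higher and 1 lower, against 2.97% and 1.87% of all tested genes. Log2 differences were positive for 2 and negative for 6. Gkn1, a gastrokine known from the stomach lining, had 4.39, 0, 8.64 and 6.10 normalized counts in controls and 82.4, 77.6 and 90.9 in mutants. Gkn1 passed the filter through the mutants alone, and without any 1 of them it no longer did. Tested without a filter, it rose by 4.09 ± 0.53 on the log2 scale (SE, edgeR adjusted p = 0.0014). Lect1, chondromodulin, the cartilage protein most like tenomodulin, had 47.2 to 93.1 normalized counts in controls and 17.2 to 29.0 in mutants. It fell by 1.55 ± 0.30 on the log2 scale (SE, edgeR adjusted p = 0.022), a call lost without control 10 or 11 or any 1 mutant, the adjusted p reaching at most 0.10. The abundant members of the family, Itm2a, Itm2b and Itm2c, did not pass the test (log2 differences 0.37, -0.12 and -0.09).

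Skeletal muscle and meninges, which can come with dissected brain, were examined with their own lists. Of 13 muscle genes, 8 were tested, with a median log2 difference of -0.08. Of those 8, 1 was called higher and 1 lower, against 2.97% and 1.87% of all tested genes. At an unadjusted edgeR p of 0.05 there were 1 higher and 2 lower. Myh8, the perinatal myosin heavy chain, rose by 1.78 ± 0.22 (log2, SE, edgeR adjusted p = 0.0041), from 132 ± 34.6 (SD, n = 4) to 455 ± 98.3 (SD, n = 3) normalized counts. Myh4, the adult fast myosin heavy chain, fell by 1.71 ± 0.28 on the log2 scale (SE, edgeR adjusted p = 0.012), a call lost without mutant 12 or 13 (adjusted p at most 0.072). Myosin heavy chain genes share sequence (16.4% of Myh8 and 26.5% of Myh4 words), so their split is uncertain. Acta1, skeletal actin, had a log2 difference of 0.15 (edgeR adjusted p = 0.82), Ckm had under 10 normalized counts in every library, and Mylpf had a log2 difference of 0.30 (edgeR adjusted p = 0.71). The summed muscle list was 21.6 to 24.3 CPM in controls and 27.9 to 32.0 CPM in mutants, a gap that Myh8 alone carried. Without Myh8, a choice made after its values were seen, every mutant sum (572 to 605 normalized counts) was below every control sum (606 to 706). The part of muscle in the levels of the 4 genes was not tested. All 11 meningeal genes were tested and 0 were called by edgeR, DESeq2 or limma-voom, 1 being lower at an unadjusted edgeR p of 0.05, with a median of -0.14 and sums of 295 to 503 CPM in controls and 248 to 365 CPM in mutants.

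**Figure D3:**
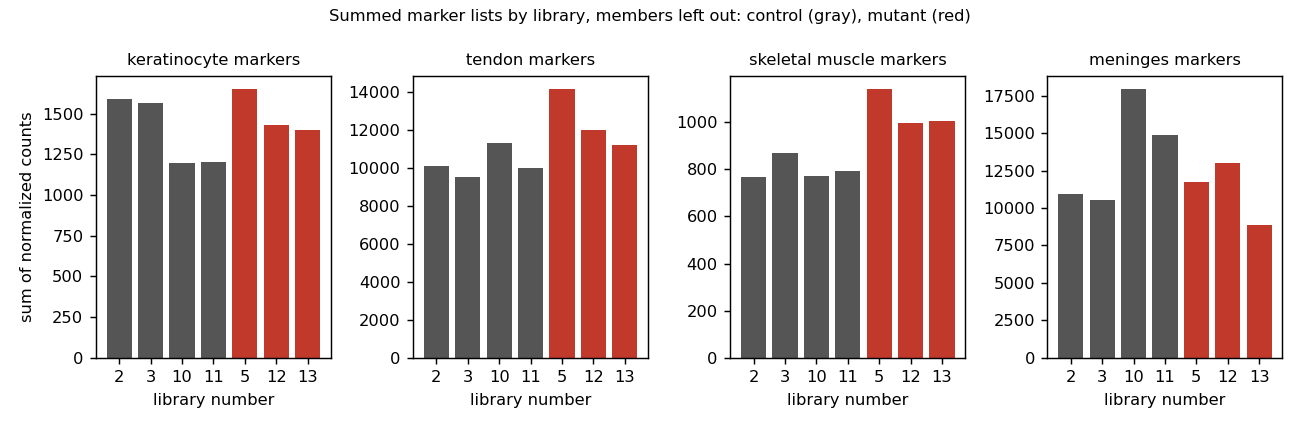
Sum of normalized counts over 4 marker lists in each library (bars from 0, one y axis per list), controls in gray and mutants in red, with the 4 genes left out. The 3 mutant bars exceed the 4 control bars for skeletal muscle (995 to 1140 against 769 to 868), whereas the groups overlap for the keratinocyte, tendon and meningeal lists. Without Myh8, left out after its values were seen, the muscle sums nearly meet, at 571.9 to 605.1 in mutants and 606.5 to 706.0 in controls.

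The 5 coding genes on each side of each member were read as well. Of these 40 neighbours 24 had at most 3 deposited counts in every library, and the 6 that were tested all lay near Tnmd. Of those 6, 1 was called higher and 1 lower, against 2.97% and 1.87% of all tested genes. Srpx2, a secreted sushi-repeat protein encoded 42.9 kilobases from Tnmd, rose by 1.86 ± 0.18 on the log2 scale (SE, edgeR adjusted p = 0.0013), from 53.7 ± 7.30 (SD, n = 4) to 195 ± 35.9 (SD, n = 3) normalized counts. Pcdh19, a protocadherin gene 162 kilobases away on the other side, fell by 0.87 ± 0.10 on the log2 scale (SE, edgeR adjusted p = 0.0021), from 2419 ± 191 (SD, n = 4) to 1324 ± 118 (SD, n = 3). Tspan6, which lies nearer than both at 25.5 kilobases, had a log2 difference of 0.04 (edgeR adjusted p = 0.92). Without library 12 Srpx2 stood at 1.75 and Pcdh19 at -0.90, both still called.

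Around the other 3 genes no neighbour reached the filter. Of the 10 neighbours each, 8 of Lce1g, 8 of Crct1 and 5 of Krt75 had at most 3 counts in every library. The nearest neighbour of Krt75, 4732456N10Rik at 0.395 kilobases, had 0, 2, 1 and 0 counts in controls and 9.46, 9 and 9 in mutants. Krt6a, a keratin of the hair follicle and of wounded epidermis, had 0 counts in the controls and 7.22, 4.74 and 3 in mutants, with 60.7% of its words shared with other genes. Krt86, a hair keratin, had 2 counts in 1 control and 11.7, 3.96 and 5.95 in mutants, with 48% shared. Lce1m, 2.12 kilobases from Crct1, had at most 1.02 normalized counts in any library.

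**Figure D4:**
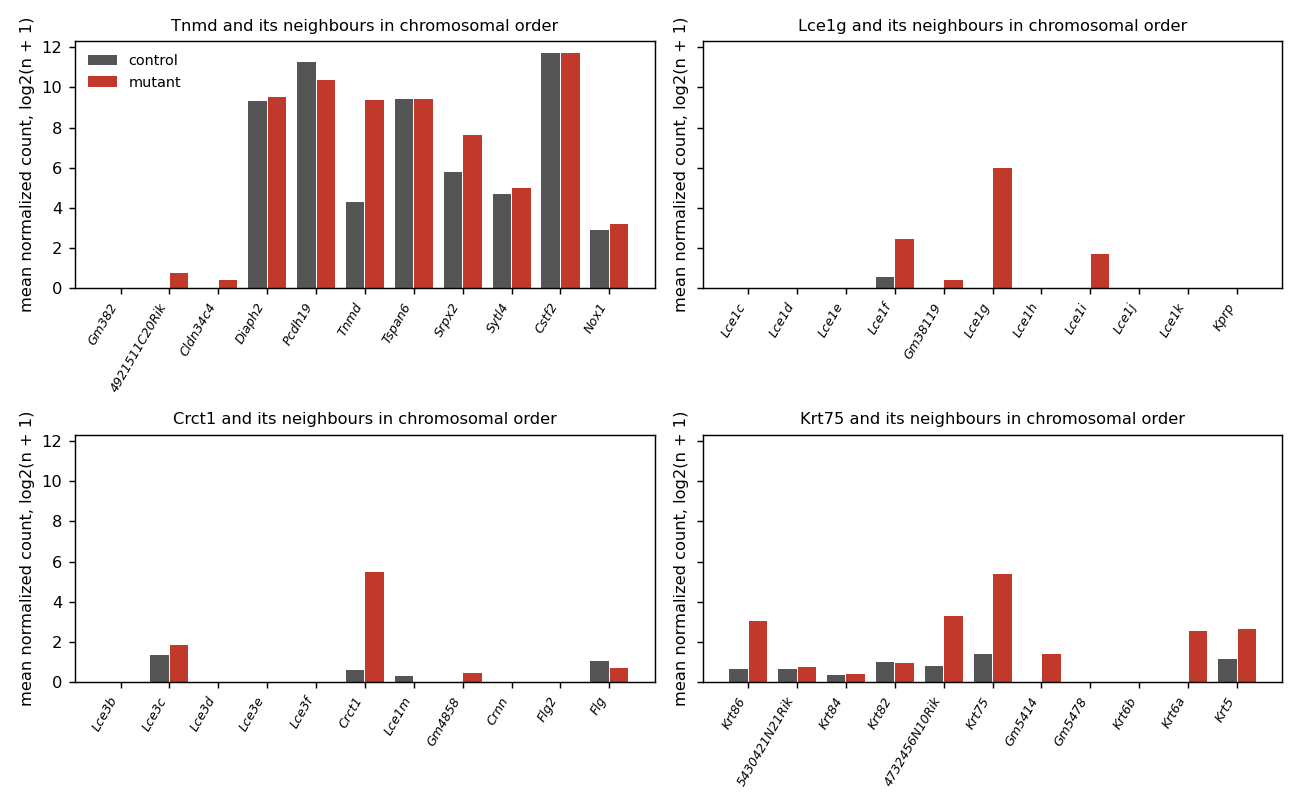
Mean normalized count, as log2(n + 1), of each member and its 5 coding neighbours on each side in chromosomal order, controls in gray and mutants in red. Tnmd lies among expressed genes with Srpx2 higher and Pcdh19 lower in mutants, while Lce1g and Crct1 stand above rows of genes at or near 0.

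Genes near 0 in controls and present in every mutant were few. With at most 3 rounded counts in each control and at least 10 in each mutant there were 11 genes, and 0 genes had the reverse pattern. Lce1g and Crct1 had the highest mutant means of the 11. The next were Esrp2, a splicing factor of epithelial cells, at 29.3 ± 13.3 (SD, n = 3) normalized counts, Hao1, a glycolate oxidase of liver, at 28.6 ± 7.0 (SD, n = 3), and Mir155hg, the host of a microRNA of activated immune cells, at 24.8 ± 6.12 (SD, n = 3). Gm26920, Clca1, Klk2-ps, AI606473 and Ifi202b followed with means from 24.1 down to 13.4. Without library 12 the count was 18 genes, with 2 in the reverse direction. Tnmd and Krt75 were not in this class, since controls had up to 26 and 4.43 counts of them.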

How the data were processed

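RNA from the forebrain of mice at postnatal day 15 was sequenced as single-end reads of 36 bases from TruSeq libraries, with 0.5 µg of RNA per the labels and 1 µg per the study's methods. The authors deposited expected counts per gene, made with cutadapt 1.9.1, Bowtie2 2.2.9 and RSEM 1.2.31 on GRCm38 with Ensembl 84 per the study's methods and the submitters' processing notes, and RSEM shares reads between genes with like sequence. A second deposited table holds the authors' DESeq2 comparison, from which only gene symbols were used. No column was left unmapped to a group.

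Counts were rounded, scaled by TMM and tested with edgeR 4.0.16 in R 4.3.3 (glmQLFit, glmQLFTest) over 19684 genes with 10 counts in 3 libraries, 4 controls against 3 mutants without covariates, with Benjamini-Hochberg adjustment. SDs are between pools, and p-values measure only that spread. Depth sets a floor of 3 counts, or 0.0788 to 0.0922 CPM per library, for counting error only. CPM per kilobase used the summed exon length of the deposited Ensembl 84 annotation. Gene symbols came from the authors' DESeq2 comparison and the 36-base exon words from GENCODE M21. Alternatives were DESeq2 1.42.0, limma 3.58.1 (voom), other scaling and filters, unrounded counts, the library number range as a covariate, and leaving out each library.

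The 4 members and all gene lists were chosen with earlier results of these data known. Named genes were the members, Lhx6, genes of the lists that were called or reached 10 normalized counts in a library, defining markers, the 5 neighbours on each side, the 5 genes most like each member, up to 10 genes near 0 in 1 genotype, and Xist and Ddx3y. Those printed are a part of these. The edgeR step was tested on simulated data.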

Additional observations from a re-analysis of the deposited data

Results flagged for a closer look

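In 16 genes checked for a library far from the others of its group (controls only, since the mutants were 3), 1 gene was marked. Tgm1 had 5.02 normalized counts in control library 3, against 7.68, 7.68 and 8.13 in controls 2, 10 and 11. The gap to the nearest control was 0.854 times the range, above the limit of 0.83 for 4 samples. Chance alone marks about 1 in 20 such groups. Its raw count in that library was 5, and the 3 mutants, at 21.1 to 41.7 normalized counts, lie above all 4 controls with or without it.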

How the results depend on the processing

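No paired analysis was possible because the count columns carry library numbers that cannot be matched to the replicate numbers of the labels. Genes called higher in mutants (585) became 1002 with DESeq2 and 1213 with the library number range as a covariate, and genes called lower (369) became 729 and 992. With the number range as a covariate, tendon genes called higher went from 1 to 4, BRICHOS genes called higher from 1 to 2, muscle genes called lower from 1 to 2 and meningeal genes called lower from 0 to 1. DESeq2 called 3 tendon genes higher. A filter of 10 counts in all 7 libraries gave 2 tendon genes, 0 BRICHOS genes and 1 keratinocyte gene higher, Gkn1 and Tgm1 no longer being tested, and no filter gave 1 gene of the epidermal differentiation complex (Sprr1a). The Krt75 mutant mean of 40.2 was 58.4 in library 5 alone. Allowing at most 1 count per control left 3 of the 11 genes near 0, and a smaller prior count kept 13 of the 20 likeness names.

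Leaving out 1 library at a time gave 223 to 587 genes higher and 79 to 382 lower, with fewer samples and genes tested. Tendon genes called higher were 1 to 2 (2 without mutant 5) and lower 0 to 1, BRICHOS genes 0 to 1 in each direction, keratins higher 1 to 2 (2 without control 3), keratinocyte genes higher 1 to 2, muscle genes lower 0 to 1, and genes near 0 in controls 14 to 18 and in mutants 0 to 2. Mutant means ran from 564 to 750 for Tnmd, 43.7 to 72.2 for Lce1g, 30.5 to 52.2 for Crct1 and 31.1 to 45.3 for Krt75, and control means from 16.1 to 22.2, 0, 0.320 to 0.659 and 0.670 to 2.13. Among single genes, all of them called in the main fit, 158 refits kept the call, 16 lost it and 0 changed direction. Tgm1 and Gkn1 entered with 10 refits each and the other genes with 14, as refits in which a gene was not tested are left out. The cause was not tested where none is given. Depth limits Lce1g, Crct1 and Krt75 most, since their control levels rest on 0, 2 and 6 counts.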
